A study of Mus musculus with 6 samples.

Results

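The CA1 identity genes are 8 genes, Pou3f1, Hpca, Cabp1, Spink8, Fibcd1, Wfs1, Man1a and Mpped1, used as markers of the pyramidal neurons of field CA1 of the hippocampus. They were picked by name from the authors' comparison table, and all 8 were found there among 52550 genes of the count table and passed the filter on low counts, as 8 of 16758 tested genes. The mice were male C57BL/6J, and each library holds hippocampal RNA of 1 mouse. All mice had an adeno-associated virus (AAV, a gene-delivery vector) placed stereotaxically in CA1 of both hemispheres at 8 weeks of age, and the titles give 31 days. The TAF15 OE group (n = 3) received a vector for TAF15, an RNA-binding protein that also associates with the transcription factor TFIID, and its label includes CaMKIIα, a promoter active in excitatory neurons. The Control group (n = 3) received a control AAV, for which the labels name no promoter or insert. The virus was aimed at CA1 while RNA was taken from the hippocampus, so other neurons and glia are in every library.

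CA1 pyramidal neurons are the main output neurons of the hippocampus proper. They receive Schaffer collateral input from CA3, project to the subiculum and cortex, and are needed for spatial and episodic-like memory. Their identity genes do not form 1 pathway. Pou3f1 (also Oct6) is a POU-domain transcription factor, Hpca (hippocalcin) and Cabp1 (caldendrin) are EF-hand calcium sensors, Spink8 belongs to the Kazal family of protease inhibitors and Fibcd1 is a membrane receptor for acetylated sugars. Wfs1 (wolframin) is a membrane protein of the endoplasmic reticulum, Man1a is a Golgi mannosidase that trims N-glycans, and Mpped1 carries a metallophosphoesterase domain. Several are also transcribed outside CA1: Hpca is found in other pyramidal neurons, and Man1a in many cell types.

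Total counts lay between 14965464 and 16067000 per library. Taf15, the gene carried by the vector, was 4.27-fold higher in TAF15 OE (254 ± 16.1 CPM, mean ± SD, n = 3) than in Control (59.4 ± 5.64 CPM). CPM is the normalised read count relative to the scaled library total. Control 1 and TAF15 OE 1 stood apart from the other libraries: the summed level of 6 choroid plexus markers was 142 and 1513 CPM there, against 4244 to 4939 CPM in the other libraries. Without that pair 6 of the 8 genes were called lower, Wfs1 being the addition, as were 5.99% of all tested genes.

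Of the 8 genes, 5 fell in TAF15 OE: Pou3f1, Hpca, Spink8, Fibcd1 and Cabp1. Pou3f1 and Hpca fell 1.80-fold and 1.78-fold, Spink8 1.68-fold, and Fibcd1 and Cabp1 1.38-fold each. Wfs1 and Mpped1 were below every Control library in all 3 TAF15 OE libraries but did not pass the test, and Man1a overlapped between the groups. No gene of the 8 was called higher. The test was edgeR's quasi-likelihood F-test with Benjamini-Hochberg adjustment over all tested genes, called at an adjusted p below 0.05, and it called 5.95% of all tested genes lower and 9.32% higher. With a further limit of 0.5 on the size of the log2 change, Pou3f1, Hpca and Spink8 were left, 3 of the 8, against 1.16% of all tested genes. The median log2 fold change of the 8 genes was -0.59, and that of all tested genes was 0.026. All TAF15 OE libraries were below all Control libraries in 7 of the 8 genes, as in 15.5% of the tested genes. In bulk RNA, fewer cells of a type and less RNA per cell cannot be told apart.

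**Figure D1:**
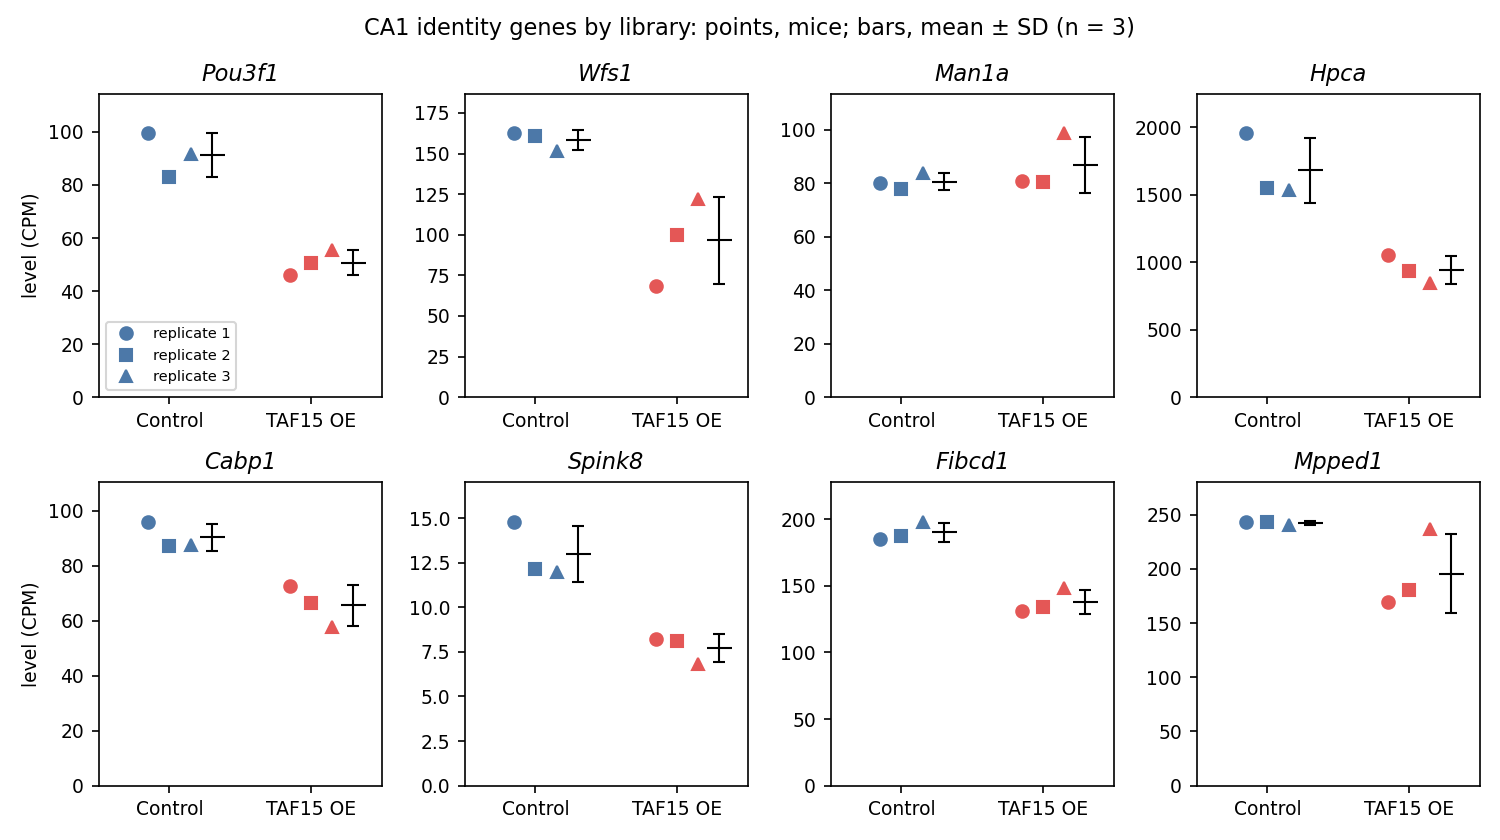
Level of each of the 8 genes in CPM (vertical axes, starting at 0) in the 3 Control (blue) and 3 TAF15 OE (red) libraries. Points are mice, and black bars are the mean ± SD. In Pou3f1, Hpca, Spink8, Cabp1, Fibcd1 and Wfs1 the groups are clearly apart, in Mpped1 the library TAF15 OE 3 lies just below Control, and in Man1a the groups overlap.

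The 5′ regions of the 8 genes were looked up in RefSeq promoter windows of build GRCm38.p6, of which 10 windows belonged to 6 of the 8 genes. Pou3f1 and Spink8, both called lower, had no window, whereas Wfs1, Mpped1 and Man1a, which were not called, had one or more. The Fibcd1 and Cabp1 windows are shown because these genes fell by almost the same amount and the stretches shown hold no annotated exon. The 150 bases before the start are given 5′ to 3′, from chr2:31846006-31846155 and chr5:115194382-115194531, both on the minus strand. Capitals mark a GC box.
Fibcd1: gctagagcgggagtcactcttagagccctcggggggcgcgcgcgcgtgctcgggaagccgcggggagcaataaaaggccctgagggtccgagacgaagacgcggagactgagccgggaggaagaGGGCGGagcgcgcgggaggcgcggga
Cabp1: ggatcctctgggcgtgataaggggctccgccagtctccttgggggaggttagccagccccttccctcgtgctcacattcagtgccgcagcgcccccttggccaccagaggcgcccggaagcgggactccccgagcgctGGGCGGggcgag
Both stretches are rich in G and C, 71.3% in Fibcd1 and 70.7% in Cabp1. Searching 250 bases before each start on both strands, a GC box (GGGCGG) was found in 7 of the 10 windows, with at least 1 window of each of the 6 genes, and in 32.7% of all 32851 windows. A TATA box (TATAAA) was found in 0 of the 10, against 12.4% of all windows. The octamer to which POU factors bind (ATGCAAAT) was in 0 of the 10 and in 526 of all windows, 1.6%, and the cyclic AMP response element (TGACGTCA) in 0 of the 10 and 1.55% of all. These matches describe the windows only. Man1a, which was not called, has a GC box too.

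Pou3f1 (ENSMUSG00000090125, chromosome 4, 124656807 to 124660655, plus strand, GRCm38) is the transcription factor of the group. It had 99.6, 82.8 and 91.5 CPM in Control 1, 2 and 3, against 46.1, 50.7 and 55.5 CPM in TAF15 OE 1, 2 and 3. The lowest Control library was well above the highest TAF15 OE library. Its log2 fold change was -0.85 (SE 0.092, edgeR adjusted p = 3.94e-04), and 0.549% of the tested genes had a lower one. Its 5′ end shares 330 exonic bases with the antisense gene Gm2164, which had 11 to 30 counts per library against 721 to 1466 for Pou3f1. Whether counting used strand is not stated in the labels, and reads of the pair cannot be told apart there. No other POU factor gene was called lower. Of 7 tested, 1 was called, Pou2f2, a factor of lymphoid and other cells, which rose by 0.48 on the log2 scale (adjusted p = 0.018), and the closest relatives Pou3f2 (0.14) and Pou3f3 (-0.091) were not called. Leaving out Control 2, Control 3, TAF15 OE 2 or TAF15 OE 3 left 0 of these 7 other POU genes called. Those fits called 1519, 1698, 1331 and 1739 genes in all, against 2559 with all libraries. Scaled on pan-neuronal genes 3 of the 7 were called, where 38.5% of all tested genes were called higher and 0.806% lower.

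Hpca (ENSMUSG00000028785, chromosome 4, 129111570 to 129122036, minus strand) binds calcium through EF hands and moves to membranes when calcium rises. It was the most abundant of the 8, with 1956, 1552 and 1534 CPM in Control 1, 2 and 3, against 1053, 933 and 846 CPM in TAF15 OE 1, 2 and 3. Control 1 was the highest library and TAF15 OE 3 the lowest, and the groups did not overlap. The log2 fold change was -0.83 (SE 0.11, adjusted p = 0.00168), and without Control 1 it was -0.71 (adjusted p = 0.00208).

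Cabp1 (ENSMUSG00000029544, chromosome 5, 115168689 to 115194381, minus strand) is a calmodulin-like protein that acts on calcium channels and inositol trisphosphate receptors. It had 96.1, 87.2 and 87.7 CPM in Control, against 72.5, 66.6 and 57.7 CPM in TAF15 OE. The groups were apart, with a smaller gap than for Hpca. Its log2 fold change was -0.46 (SE 0.089, adjusted p = 0.00669).

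Other EF-hand calcium sensors were read from a list chosen with earlier results of these data known. Of 15 tested, 5 fell and 1 rose, with a median log2 fold change of -0.23. Those that fell were the hippocalcin relative Ncald (-0.45), the potassium channel partners Kcnip2 (-0.51) and Kcnip4 (-0.49), and the calmodulin genes Calm2 (-0.36) and Calm3 (-0.44). Kcnip3, a channel partner also known as a transcriptional repressor, rose by 0.25. The hippocalcin relatives Hpcal1 (0.033) and Hpcal4 (-0.19) were not called. Without Control 2 or without Control 3, 3 of the list were called. Those fits called 1519 and 1698 genes in all, against 2559 with all libraries. Scaled on pan-neuronal genes the median of the list turned to 0.052, and that of all tested genes was 0.30.

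Spink8 (ENSMUSG00000050074, chromosome 9, 109812280 to 109826633, plus strand) was the least counted of the 8, with 112 to 218 counts per library. It had 14.8, 12.1 and 12.0 CPM in Control, against 8.24, 8.09 and 6.80 CPM in TAF15 OE. All TAF15 OE libraries were lower than all Control libraries. The log2 fold change was -0.75 (SE 0.15, adjusted p = 0.00777), with the widest SE among the 5 called genes.

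Fibcd1 (ENSMUSG00000026841, chromosome 2, 31813290 to 31846005, minus strand) had 185, 187 and 198 CPM in Control, against 131, 134 and 148 CPM in TAF15 OE. The spread within each group was small, with a coefficient of variation of 3.69% in Control and 6.72% in TAF15 OE. The log2 fold change was -0.46 (SE 0.071, adjusted p = 0.00235).

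Wfs1 (ENSMUSG00000039474, chromosome 5, 36966104 to 36989205, minus strand) serves calcium handling and protein folding in the endoplasmic reticulum, and its loss causes Wolfram syndrome. It had 163, 161 and 152 CPM in Control 1, 2 and 3, against 68.4, 99.7 and 122 CPM in TAF15 OE 1, 2 and 3. The groups did not overlap, but TAF15 OE 1 was far below TAF15 OE 3: the coefficient of variation was 3.73% in Control and 27.8% in TAF15 OE. The log2 fold change was -0.71 (SE 0.20) and did not pass (edgeR adjusted p = 0.0699). It did pass without TAF15 OE 1 (-0.54, adjusted p = 0.00247), without TAF15 OE 3 (-0.92, adjusted p = 0.00884) and with the pair Control 1 and TAF15 OE 1 left out (-0.52, adjusted p = 0.00256). In the authors' deposited table the log2 fold change of Wfs1 is -0.74 with an adjusted p of 1.11e-05.

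Genes of the endoplasmic reticulum stress response, which Wfs1 is known to restrain, were read from a list of 15. Of 14 tested, 1 fell and 1 rose, with a median of 9.2e-04. The one that fell was Atf4, a stress-induced transcription factor (-0.35, adjusted p = 0.00808). The one that rose was Edem1, which directs misfolded glycoproteins to degradation (0.64, adjusted p = 0.00314). The chaperone gene Hspa5 (-0.14) and the stress factor genes Ddit3 (0.057) and Xbp1 (-0.047) were not called. Without TAF15 OE 1, 5 of the list were called and the median was -0.15. Over all tested genes, that fit called 1293 higher and 1208 lower, with a median of 0.012. With all libraries 1562 were called higher and 997 lower. Scaled on pan-neuronal genes, 7 were called and the median was 0.28. That scaling gave a median of 0.30 over all tested genes, with 38.5% of them called higher and 0.806% lower.

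Man1a (ENSMUSG00000003746, chromosome 10, 53904785 to 54076609, minus strand) was the one gene of the 8 with a positive fold change. It had 80.3, 77.7 and 83.8 CPM in Control 1, 2 and 3, against 80.9, 80.6 and 98.8 CPM in TAF15 OE 1, 2 and 3. TAF15 OE 1 and 2 lay within the Control range, and TAF15 OE 3 was above it. The log2 fold change was 0.11 (SE 0.087, adjusted p = 0.467). Without TAF15 OE 3 the sign turned (-0.0060). Among other mannosidase genes, Man1c1 rose by 0.30 (adjusted p = 0.035), while Man1a2 (-0.13) and Man2a1 (0.14) were not called.

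Mpped1 (ENSMUSG00000041708, chromosome 15, 83779467 to 83858494, plus strand) had 243, 244 and 241 CPM in Control 1, 2 and 3, against 169, 180 and 237 CPM in TAF15 OE 1, 2 and 3. The Control libraries were nearly equal, and TAF15 OE 3 was only just below them. The log2 fold change was -0.31 (SE 0.11, adjusted p = 0.104). In FPKM, TAF15 OE 3 (56.63) was just above the highest Control library (56.62). Without TAF15 OE 3 it was -0.48 and passed (adjusted p = 0.00376). The related gene Mpped2 had a log2 fold change of -0.52 and fell (SE 0.098, adjusted p = 0.00587). Of the 6 relatives tested for Man1a and Mpped1, 2 were called, and 1 was when any 1 library other than Control 1 was left out. Such fits called 1331 to 2501 genes in all, against 2559 with all libraries. In the authors' deposited table Mpped1 has a log2 fold change of -0.34 and an adjusted p of 0.0156. None of the 8 genes is marked significant in the authors' deposited table, where the 558 marked genes all have a log2 change larger than 1 in size.

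The TAF15 OE libraries did not order the 8 genes alike. Hpca, Spink8 and Cabp1 were lowest in TAF15 OE 3, whereas Pou3f1, Fibcd1, Wfs1 and Mpped1 were lowest in TAF15 OE 1. For Wfs1, the log2 level relative to its mean over libraries was -0.83 in TAF15 OE 1 and -0.0018 in TAF15 OE 3. Hpca stood at -0.25 and -0.57 in the same libraries. Measured as the root mean square difference of such values over the 6 libraries, the closest pair was Spink8 and Hpca (0.064) and the farthest was Man1a and Hpca (0.51).

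**Figure D2:**
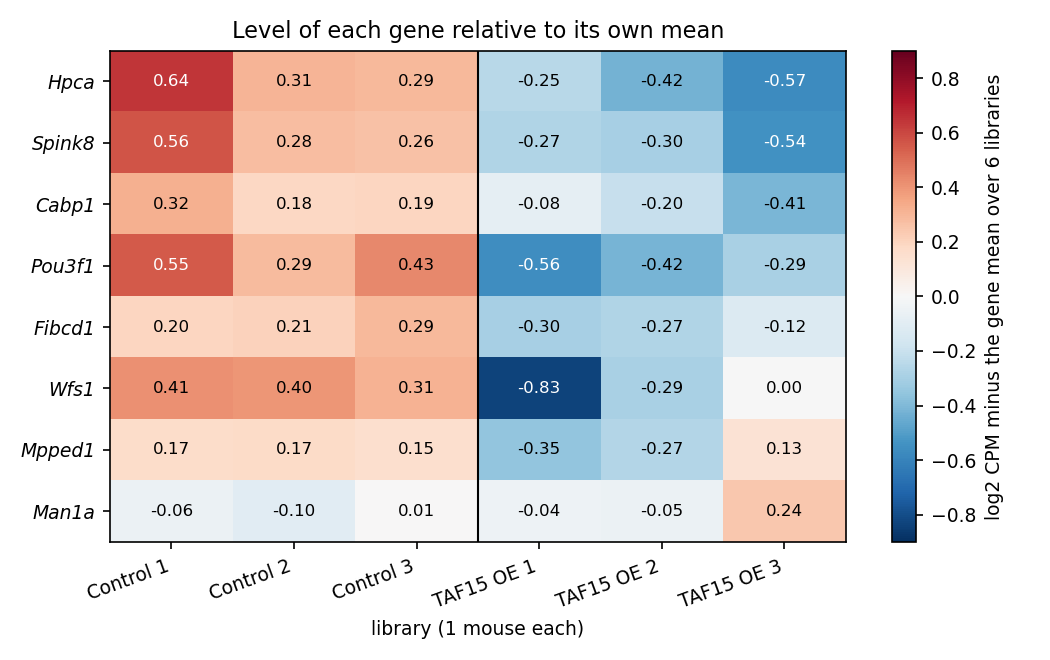
Log2 CPM of each gene minus its own mean over the 6 libraries (colour and printed value), with genes in rows and libraries in columns. Hpca, Spink8 and Cabp1 are lowest in TAF15 OE 3, and Pou3f1, Fibcd1, Wfs1 and Mpped1 are lowest in TAF15 OE 1.

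The same measure found the genes with the most similar pattern among 10887 protein-coding genes outside the 8 whose mean log2 CPM was 3 or more. The nearest gene to the mean of the 8 was Fam131a (0.024), followed by Egfem1, Fam189a1, Camkk2 and Rgs14 (0.040 to 0.047). Rgs14 is itself a marker of CA2 neurons, and Camkk2 encodes a kinase that activates calmodulin-dependent kinases. For single genes, the ephrin receptor gene Epha7 was nearest to both Spink8 (0.054) and Hpca (0.070). Lmo1 was nearest to Pou3f1 (0.080), Nrxn3 to Fibcd1 (0.042), Nsmf to Cabp1 (0.026), Epop to Wfs1 (0.084), Mast1 to Mpped1 (0.049) and Nktr to Man1a (0.021). All these distances rest on the same 6 libraries and include the difference between the groups.

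Per length, in FPKM (fragments per length of gene and per library total, made by the authors), the order in Control was Hpca, Mpped1, Wfs1, Fibcd1, Pou3f1, Spink8, Cabp1 and Man1a. Hpca stood at 564 ± 69.9 FPKM in Control, about an order of magnitude above Mpped1 at 55.5 ± 1.05 FPKM, and Man1a at 8.21 ± 0.317 FPKM. The ranges of Wfs1 (41.1 ± 1.45 FPKM) and Fibcd1 (39.3 ± 1.82 FPKM) overlapped, as did those of Spink8 (15.5 ± 1.61 FPKM) and Cabp1 (15.2 ± 0.569 FPKM). In TAF15 OE Hpca was again first, at 327 ± 32.1 FPKM, and Man1a last, at 9.13 ± 1.19 FPKM. There Fibcd1 (29.4 ± 2.30 FPKM) stood before Wfs1 (25.9 ± 7.48 FPKM) with overlapping ranges, and Cabp1 (11.4 ± 1.16 FPKM) before Spink8 (9.52 ± 0.890 FPKM). Spink8 and Man1a overlapped in range there, whereas in Control Spink8 was well above Man1a.

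Of 19 pan-neuronal genes, 13 fell and 0 rose, with a median log2 fold change of -0.27, and their summed level was 15277 to 15826 CPM in Control, against 12471 to 13033 CPM in TAF15 OE. Of these, 6 were called without Control 1 or without TAF15 OE 2, and 7 without Control 2 or without TAF15 OE 3. Lower calls over all tested genes dropped too, from 997 to 424 and 365 in the first 2 fits and to 642 and 624 in the others. The 8 genes were also fitted with libraries scaled on the pan-neuronal genes, and the median over all tested genes was then 0.30. Under that scaling 3 of the 8 were called lower, as were 0.806% of all tested genes. Pou3f1 (-0.57, edgeR adjusted p = 7.63e-04), Hpca (-0.56, adjusted p = 0.00175) and Spink8 (-0.47, adjusted p = 0.0265) were lower relative to pan-neuronal genes. Fibcd1 (-0.19, adjusted p = 0.0576) and Cabp1 (-0.19, adjusted p = 0.102) were not called on this scale. Wfs1 (-0.43, adjusted p = 0.159) and Mpped1 (-0.035, adjusted p = 0.817) were not called either. Man1a was called higher (0.38, adjusted p = 0.00598), as were 38.5% of all tested genes. Divided by the geometric mean of the pan-neuronal genes, Pou3f1 was -2.60, -2.83 and -2.66 on the log2 scale in Control 1, 2 and 3, against -3.44, -3.25 and -3.15 in TAF15 OE 1, 2 and 3, so the groups stayed apart. Mpped1 overlapped on this scale, with -1.31, -1.28 and -1.27 in Control, against -1.56, -1.42 and -1.06 in TAF15 OE.

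**Figure D3:**
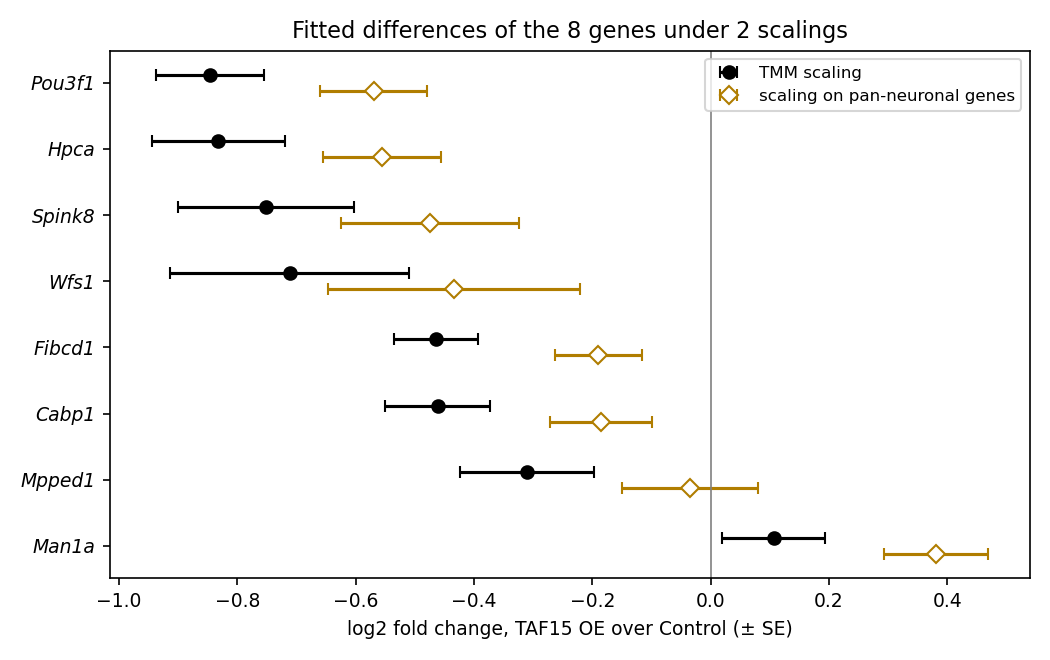
Fitted log2 fold change of each gene, TAF15 OE over Control, with its SE (horizontal bars), scaled by TMM (filled circles) and on pan-neuronal genes (open diamonds). All 8 values lie further right under the second scaling, and Man1a is the one gene to the right of 0 under both.

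Markers of non-neuronal cells were higher in the same libraries. Of 6 microglia markers 5 were called higher, as were 9.32% of all tested genes. The summed level of the 6 was 386 to 435 CPM in Control, against 748 to 1135 CPM in TAF15 OE. Of 6 astrocyte markers 4 rose, with a summed level of 2188 to 2580 CPM in Control, against 4747 to 5262 CPM in TAF15 OE. Most of that gap was Gfap, the filament gene of reactive astrocytes, at 617 ± 66.1 CPM in Control, against 2588 ± 114 CPM in TAF15 OE, and the median log2 fold change of the 6 was 0.50. Of 6 oligodendrocyte markers 5 rose, with 4848 to 5214 CPM in Control, against 5959 to 7746 CPM in TAF15 OE, and of 6 endothelial markers 2 rose, with 152 to 198 CPM and 196 to 288 CPM. Fewer were called with single libraries left out: 3 microglia markers and 0 endothelial markers without Control 2, 1 endothelial marker without Control 1 or any 1 TAF15 OE library, and 1 oligodendrocyte marker without TAF15 OE 2. Over all tested genes these fits called 877 to 1293 genes higher, against 1562 with all libraries. None of these markers was at 0 in any group, and their part in the lower levels of the 8 genes was not tested.

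Further genes prominent in CA1 neurons were read from a list chosen by name, with earlier results of these data known. Of 10 tested, 3 fell and 0 rose, with a median log2 fold change of -0.34. Without Control 2 or without TAF15 OE 3, 5 were called. Over all tested genes, these fits called 1519 and 1739, against 2559 with all libraries. Of those, 642 and 624 were lower, against 997. Scaled on pan-neuronal genes, the median of this list was -0.061, with 2 called. The median of all tested genes was then 0.30, with 38.5% called higher and 0.806% lower. Itpka, a kinase of dendritic spines, fell by 0.60 (SE 0.071, adjusted p = 6.34e-04), from 243 ± 14.1 to 160 ± 8.04 CPM. The calcium buffer gene Calb1, also abundant in dentate granule neurons, fell by 0.57 (SE 0.10). The peroxisomal-receptor-related gene Pex5l (-0.17) and the matricellular gene Nov (0.13) were not called. As a mean of centred log2 levels, the list stood at -0.29, -0.24 and 0.050 in TAF15 OE 1, 2 and 3, below the Control libraries (0.12 to 0.19). TAF15 OE 3 was the highest TAF15 OE library there, and also for Pou3f1, Fibcd1, Wfs1, Mpped1 and Man1a.

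Genes shared by pyramidal neurons of all fields had a median of -0.56, and 6 of 10 fell while 0 rose. These were the transcription factor genes Neurod6 (-0.64) and Emx1 (-0.64), the signalling gene Chn1 (-0.60), the calmodulin-binding gene Nrgn (-0.58), the kinase gene Camk2a (-0.55) and the glutamate transporter gene Slc17a7 (-0.48). For the list of CA2 and CA3 genes the median was -0.11, with 1 of 8 tested genes lower, Rgs14 (-0.55). For dentate granule genes it was -0.095, with 2 of 6 lower, Dsp (-1.17) and Tdo2 (-1.18), and these 2 fell further than any of the 8 CA1 identity genes. For interneuron genes it was -0.14, with 2 of 6 lower, Pvalb (-0.48) and Sst (-0.38). Without Control 2 no interneuron gene was called (0 of 6), without Control 1 or TAF15 OE 3 it was 1, and without TAF15 OE 1 or TAF15 OE 3 the CA2 and CA3 list had 2 called. Lower calls over all tested genes were 642 without Control 2, 424 without Control 1 and 624 without TAF15 OE 3. They were 1208 without TAF15 OE 1 and 997 with all libraries. The dentate median was -0.34 without TAF15 OE 1, -0.20 without Control 2, 0.0010 without Control 1 and 0.058 without TAF15 OE 3, so its sign rested on single libraries. The CA2 and CA3 median was -0.21 without Control 3, and the interneuron median was -0.21 without TAF15 OE 3. Scaled on pan-neuronal genes, the medians of the dentate (0.18), CA2 and CA3 (0.17) and interneuron (0.14) lists turned positive, while those of the 8 genes (-0.31), the shared pyramidal genes (-0.29) and the further CA1 genes (-0.061) stayed negative, the last close to 0. Under that scaling the median of all tested genes was 0.30. The differences between these lists were not tested.

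**Figure D4:**
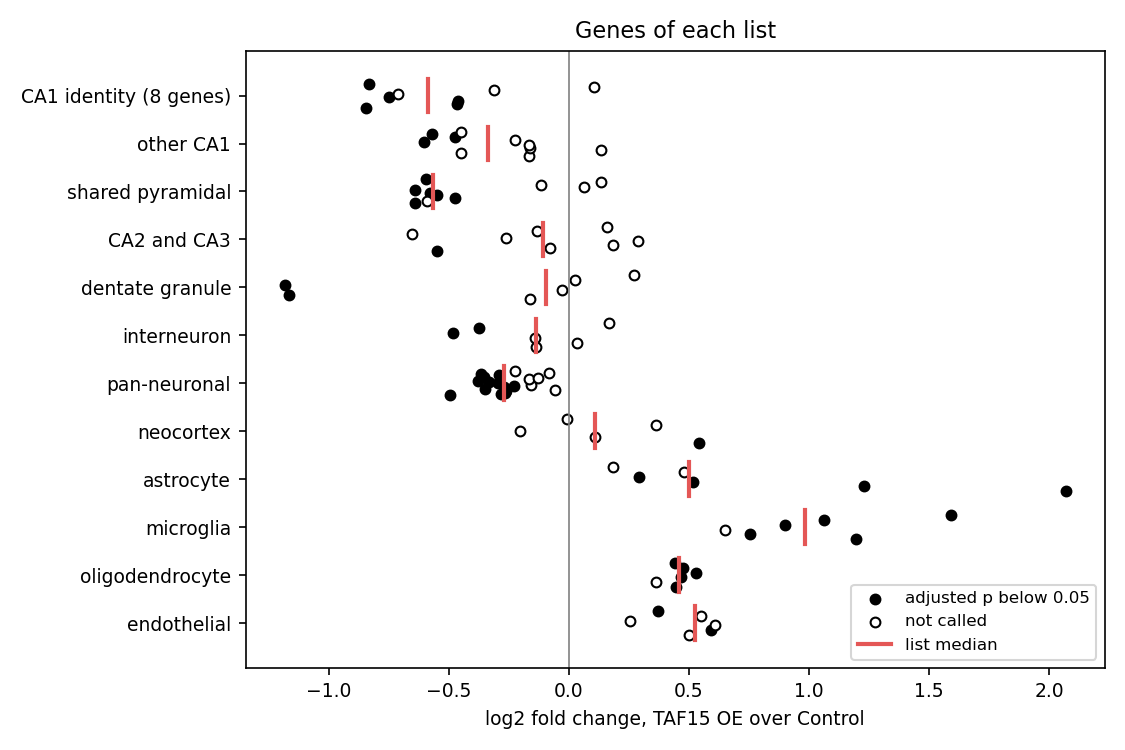
Log2 fold change, TAF15 OE over Control (horizontal axis), of each tested gene of the lists named at the left. Filled points passed edgeR's test at an adjusted p below 0.05, open points did not, and the red line is the list median. The CA1 identity genes have a median of -0.59, and the shared pyramidal genes of -0.56.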

How the data were processed

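The tools named are HISAT2 2.1.0, TopHat2, Bowtie2 2.2.3 and CASAVA, and the build is GRCm38, per the submitters' processing notes, which state no role for them. Counter and strandedness: not given in the sources used here. Deposited files hold raw counts per Ensembl gene and the authors' FPKM. In 8926 well-counted genes, the gene length implied by count, library total and FPKM was equal across libraries within 3.12e-09. The lengths themselves were not checked. The authors' comparison table adds a normalised signal, a fold ratio, a log2 fold change and p-values whose test is not named. Its log2 fold changes of Wfs1 (-0.744789) and Mpped1 (-0.342215) equal those of the DESeq2 fit below. The deposited and DESeq2 values of these genes are therefore not separate results.

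The tests used edgeR 4.0.16 under R 4.3.3 (filterByExpr with minimum count 10 and total 15, TMM, robust quasi-likelihood F-test, group as the only term). SE came from the F statistic. Positions are those of the authors' table, equal to GENCODE M21 for all 8 genes. The members and lists were chosen with earlier results of these data known. All 8 members are named. From other lists the text names up to 4 called genes of smallest p and genes needed to read the list, and the nearest genes by pattern. Kcnip3, Kcnip4, Hpcal1, Hpcal4, Hspa5, Ddit3 and Xbp1 fall outside that rule and were chosen after their values were seen. Some genes of the lists are counted but not reported here by name. Alternatives used DESeq2 1.42.0 and limma 3.58.1. The fits were also run on counts simulated with the same spread (dispersion) for every gene. That run does not cover genes of wide spread such as Wfs1. Every pair of libraries differed beyond sampling noise (chi-square per degree of freedom at least 5.18). The labels name 1 mouse per library. Figures were drawn with matplotlib 3.10.9.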

Additional observations from a re-analysis of the deposited data

How the results depend on the processing

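Among 20 alternatives, Pou3f1, Hpca and Spink8 stayed lower and called in all 20, and Fibcd1 and Cabp1 stayed lower in all 20. Fibcd1 and Cabp1 lost their call under scaling on pan-neuronal genes and under the 0.5 limit on log2 change, and Cabp1 also with unfiltered FPKM in limma-trend, pseudocount 1 (adjusted p = 0.0689). With 1 library left out at a time, the 5 called genes stayed called, at an adjusted p of at most 0.0351. Wfs1 was also called with DESeq2 size factors (adjusted p = 0.0481), DESeq2 (1.07e-05), limma-voom (0.0222) and no filter (1.94e-04), with 0.190 as its largest adjusted p. Mpped1 was also called with DESeq2 (0.0152) and no filter (2.94e-04), with 0.817 as its largest. With 1 library left out, Man1a ran from -0.00596 (without TAF15 OE 3) to 0.14. The cause of these changes was not tested.

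Scaling on pan-neuronal genes moved the median of the 8 genes to -0.31 with 3 called lower, and called 6590 genes in all (6455 higher and 135 lower), against 2559 (1562 higher and 997 lower) in the results above. The median was -0.52 without both Control 1 and TAF15 OE 1. The limit of 0.5 left 3 of the 8 genes called and 1306 genes in all, 194 of them lower, and an adjusted p below 0.01 left 879 (614 higher and 265 lower). No filter gave 1568 lower genes. Limma-trend on FPKM called 1551 genes (449 lower) with a pseudocount of 1, 1630 (473 lower) with 0.1, and 669 (496 higher and 173 lower) with no filter. Leaving out 1 library gave 1331 to 2501 genes in all, 877 to 1293 higher and 365 to 1208 lower. Scaling by library totals gave 1838 higher and 716 lower.

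The labels give both groups the same replicate numbers. Deviations of same-numbered libraries from their group means correlated at 0.126, 0.0776 and 0.0871, and every library correlated best with its own number, a hint from the data and not from the design. With the replicate number as a block, 3291 genes were called (1904 higher and 1387 lower), 2510 of them among the 2559, and Mpped1 was called beside the 5 genes above (adjusted p = 0.0467). For Spink8, with 112 to 218 counts per library, counting noise adds to the spread.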

Other observations

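Of the 5 neocortical genes examined for tissue taken beyond the hippocampus, 1 was called: Rorb, a nuclear receptor of layer 4 neurons, had 19.2, 13.4 and 18.9 CPM in Control, against 23.8, 25.6 and 25.6 CPM in TAF15 OE (log2 fold change 0.54, edgeR adjusted p = 0.0218). Without Control 2 or without TAF15 OE 2 it was not called. Cux2, Fezf2, Rspo1 and Scnn1a were not called. Pcp4, a marker of CA2 neurons, had 4 to 12 counts per library and was not tested.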
